A study of Mus musculus with 6 samples.

Results

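The transaminases and the enzymes around glutamate in the mouse liver are described here through 10 genes: Got1, Got2, Gpt, Gpt2, Glud1, Gls2, Agxt, Sds, Bcat2 and Bckdha. They were chosen by name, with earlier results of these data known, and each was found on the array through the RefSeq accession of its probes. Together they held 16 of 56605 probes, and they were 10 of the 22911 genes that could be named. Got1, which encodes the cytosolic aspartate transaminase, was the only one of the 10 that passed the test, and it was 4.64-fold lower in soy-fed than in control livers. Agxt and Sds were 1.92-fold and 2.19-fold lower without passing it, and the mitochondrial partner of Got1, Got2, had a log2 change of 0.078.

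The livers came from male mice that the methods give as 12 weeks old when put on the diets, of a strain not given in the sources used here. Control mice (n = 3) ate 100% granulated regular food, and soy-fed mice (n = 3) ate 75% regular food mixed with 25% soy bean powder, in both groups for 4 weeks. Each array was hybridised with the RNA of 1 mouse, taken from the right hepatic lobe, so a replicate is an animal. The question was how gene expression in the liver differs after a diet enriched in soy. Soy replaced a part of the regular food, so the addition of soy and the lower amount of regular food cannot be told apart. The arrays were Agilent 1-colour arrays with 59305 non-control spots each. The scanner software marked 37010, 36366 and 38163 spots of the control livers as well above background, and 31308, 31988 and 32498 spots of the soy-fed livers. All 16 probes of the 10 genes were well above background on every array, and no spot was saturated.

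A transaminase moves the amino group of an amino acid onto a keto acid, usually 2-oxoglutarate, which becomes glutamate. The liver holds these enzymes in large amounts, and it uses them to feed the carbon of amino acids into glucose or the citric acid cycle and their nitrogen into urea. Glutamate stands in the middle: glutaminase makes it from glutamine, and glutamate dehydrogenase opens it again to 2-oxoglutarate and ammonia. The aspartate and alanine transaminases are also the enzymes that leak into blood when liver cells are damaged. Here RNA was measured, not enzyme activity. In whole tissue, fewer cells of a type and less RNA per cell cannot be told apart.

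Values are log2 of the background-corrected, quantile-normalised intensity of a probe, and a change is the mean of the soy arrays minus that of the control arrays. A probe's level is not set against that of another probe, and the summed level of a marker list, used to compare arrays only, mostly follows its brightest probes. A change passed at a Benjamini-Hochberg adjusted p under 0.05 (limma, over all probes) with a fold change above 1.5 or under 0.66. Among the 22911 named genes, each given by its brightest probe, 0.458% passed, 0.170% as lower in soy. Since the 10 genes were chosen with earlier results of these data known, the shares that follow are a description and no test of the set. Of the 10 genes, 1 passed, and 8 were lower and 2 higher in value. By limma 5 of the 10 had an unadjusted p under 0.05, against 14.2% of all named genes. The median change of the 10 was -0.33, against -0.0057 over all named genes. Of their 16 probes 2 passed, both of Got1, against 0.350% of all probes. In 3 of them, Got1, Agxt and Sds, all soy arrays lay below all control arrays, against 20.5% of all named genes whose groups did not overlap and 10.8% that did not overlap with soy lower.

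**Figure D1:**
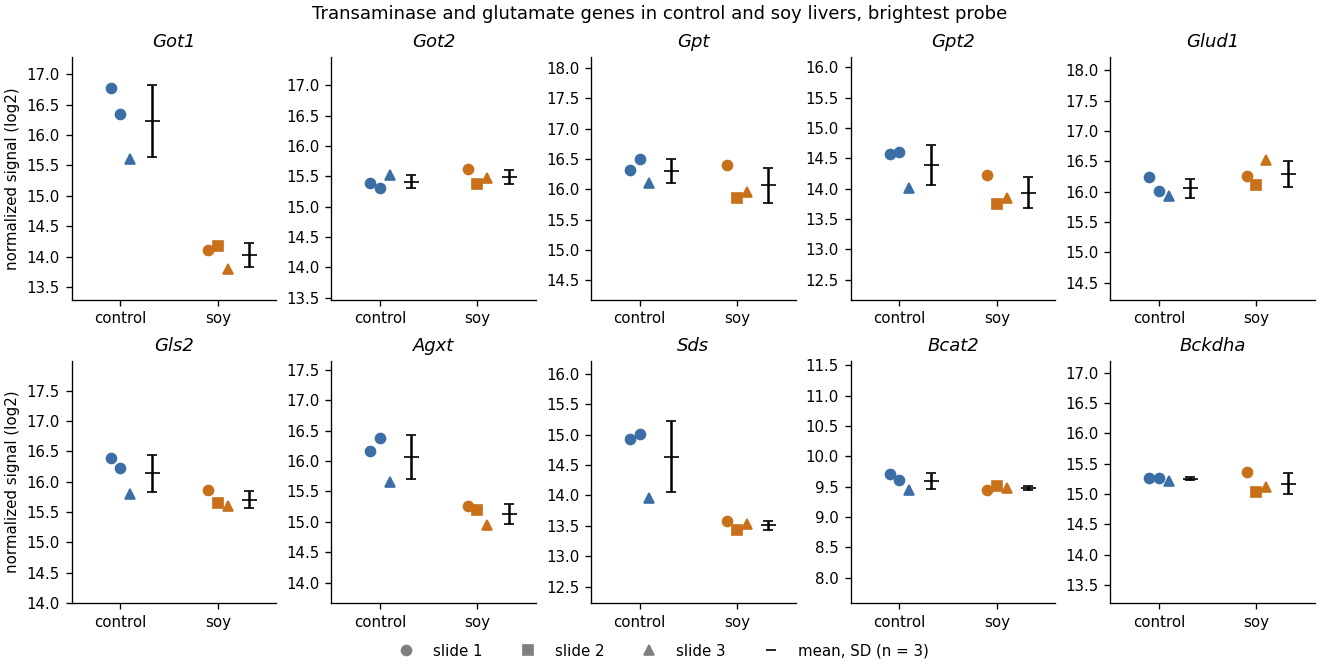
Normalised log2 intensity of the brightest probe of each of the 10 genes on the 3 control and 3 soy arrays, 1 point per mouse with its shape showing the slide, and the group mean and SD; every panel spans the same number of log2 units at its own level. The groups lie apart in Got1, Agxt and Sds and overlap in the other panels.

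Got1 encodes the cytosolic aspartate transaminase, which interconverts aspartate and oxaloacetate and belongs to the malate-aspartate shuttle that carries reducing equivalents into mitochondria. Its brightest probe read 16.77, 16.34 and 15.60 in the control livers and 14.10, 14.18 and 13.80 in the soy-fed livers (normalised log2 intensity). The lowest control liver thus lay well above the highest soy-fed liver, and the control livers were more spread out than the soy-fed ones. The mean fell from 16.24 ± 0.59 to 14.03 ± 0.20 (SD, n = 3), a log2 change of -2.21 (SE 0.28, 95% interval -2.85 to -1.57, limma, adjusted p = 0.0308). The second probe of Got1, for the same transcript, read 13.58, 13.39 and 12.79 in control and 11.22, 11.19 and 10.68 in soy-fed livers. It showed the same separation and nearly the same change, -2.23 (SE 0.23, 95% interval -2.77 to -1.69, limma, adjusted p = 0.0177). Among the 15123 genes measured well above background in at least 1 whole group, Got1 stood at rank 20 counted from the lowest change.

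The arrays came from 3 slides. One slide held control 1, control 2 and soy 1, another held control 3 and soy 3, and soy 2 was alone on its slide. Within the first, Got1 differed by -2.46 (log2), and within the other by -1.80. With the slide as a block, the change of the brightest probe was -2.18 and it no longer passed (adjusted p = 0.0859), whereas the second probe did. The call also needed nearly all arrays. Calls fell among all named genes too, from 105 genes to 58, 40, 25, 17 and 18 without control 1, control 2, soy 1, soy 2 and soy 3. With the slide as a block 13 genes passed, and without control 3, 116. Without control 3 the change of Got1 was -2.53 (adjusted p = 0.0146). Without control 1, control 2, soy 1, soy 2 or soy 3 its adjusted p lay between 0.0545 and 0.120, with changes between -2.29 and -1.95.

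Got2 encodes the mitochondrial enzyme of the same reaction. Its probe read 15.39, 15.31 and 15.52 in control and 15.62, 15.38 and 15.47 in soy-fed livers. The groups overlapped, and the change was 0.078 (SE 0.11, 95% interval -0.18 to 0.34, limma, adjusted p = 0.833). Got1 and Got2 were set against each other within each array, since both enzymes catalyse the same reaction in different compartments. The change of Got1 minus that of Got2 was -2.29 log2 units, with no overlap of the within-array differences between the groups (exact permutation test, two-sided, p = 0.1). With 3 against 3 arrays 0.1 is the smallest p that this test can give, and over the 4 pairs of enzymes tested the adjusted p was 0.133.

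The promoters of this pair are shown because both genes serve 1 reaction and only the cytosolic gene passed the test. Each run gives the 250 bases before the transcription start in RefSeq's GRCm38.p6 assembly, 5′ to 3′ on the strand of the gene, with motif matches in capitals. Got1 lies on the minus strand, with the run at chr19:43524606-43524855, and Got2 on the minus strand, with the run at chr8:95888402-95888651.
Got1: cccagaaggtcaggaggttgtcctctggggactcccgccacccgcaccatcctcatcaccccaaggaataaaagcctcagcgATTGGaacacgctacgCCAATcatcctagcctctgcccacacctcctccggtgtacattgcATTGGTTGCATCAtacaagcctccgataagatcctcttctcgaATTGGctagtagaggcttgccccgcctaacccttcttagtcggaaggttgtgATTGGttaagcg
Got2: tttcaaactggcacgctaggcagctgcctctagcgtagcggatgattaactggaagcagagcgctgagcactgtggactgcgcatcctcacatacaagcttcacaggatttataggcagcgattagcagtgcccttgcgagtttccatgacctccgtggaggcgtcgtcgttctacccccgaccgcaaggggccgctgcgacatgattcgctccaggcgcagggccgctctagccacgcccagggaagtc
The motifs searched, each on both strands, were the CCAAT box (CCAAT), the core of the site bound by ATF4 with C/EBP factors (TGATGNAA), the half-site of the glucocorticoid receptor (TGTTCT) and the E-box (CACGTG). The Got1 run held 5 CCAAT boxes, 1 on the gene's strand at -152 and 4 on the opposite strand, where they read ATTGG, at -168, -107, -64 and -12 from the start. It held 1 TGATGNAA match, also on the opposite strand, at -102, directly after the CCAAT box at -107 and not overlapping it. The Got2 run held none of the 4 motifs. Of 32851 listed promoters of this length, 33.8% held a CCAAT box, 0.213% held at least 5, and 3.45% held a TGATGNAA match, while TGTTCT was in 16.1% and CACGTG in 6.02%. Of the 10 genes 7 were listed with a promoter, and beside Got1 the only match was 1 TGTTCT in that of Agxt, at -129. These matches describe the letters of the windows and no binding was measured.

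The alanine transaminases move the amino group of alanine and so yield pyruvate, a substrate for glucose synthesis. Gpt, the cytosolic enzyme, read 16.31, 16.50 and 16.10 in control and 16.39, 15.86 and 15.95 in soy-fed livers. Soy 1 lay among the controls, and the change was -0.23 (SE 0.17, 95% interval -0.63 to 0.16, adjusted p = 0.655, limma). With the slide as a block it was -0.069, and leaving out each array in turn gave -0.40 to -0.13. The second probe of Gpt gave -0.27 (adjusted p = 0.618, limma). Gpt2, the mitochondrial enzyme, read 14.56, 14.60 and 14.01 in control and 14.22, 13.74 and 13.85 in soy-fed livers, again with overlap. Its change was -0.45 (SE 0.20, 95% interval -0.91 to -0.00052, adjusted p = 0.435, limma), and that of its second probe was -0.12 (adjusted p = 0.753, limma). With the slide as a block the brighter probe of Gpt2 was at -0.28. Within arrays the change of Gpt was 0.22 log2 units above that of Gpt2 (exact permutation test, two-sided, p = 0.1, adjusted over 4 pairs 0.133). This difference depended on the probe, since with the mean of each gene's probes Gpt was at -0.25 and Gpt2 at -0.29, and on the second probes Gpt lay below Gpt2. The interval of Gpt reaches down to -0.63 and does not exclude a decrease of that size.

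Glud1 and Gls2 make and use glutamate itself. Glud1, the mitochondrial glutamate dehydrogenase, read 16.23, 16.004 and 15.92 in control and 16.25, 16.10 and 16.51 in soy-fed livers. The groups overlapped, with soy 3 the highest liver, and the change was 0.24 (SE 0.14, 95% interval -0.090 to 0.56, adjusted p = 0.581, limma). Its second probe gave 0.21 (adjusted p = 0.685, limma).

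Gls2, the liver-type glutaminase, which releases ammonia from glutamine for urea synthesis, had probes for a pair of RefSeq transcripts. The brighter one read 16.39, 16.22 and 15.79 in control and 15.87, 15.65 and 15.60 in soy-fed livers. Control 3 lay under soy 1, and the change was -0.43 (SE 0.17, 95% interval -0.82 to -0.040, adjusted p = 0.388, limma). The other probe read 11.64, 11.67 and 11.27 in control and 11.08, 10.97 and 10.92 in soy-fed livers. There the groups did not overlap, and the change was -0.54 (SE 0.13, adjusted p = 0.168, limma).

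Agxt and Sds had the largest changes after Got1. Agxt encodes the alanine-glyoxylate transaminase, which removes glyoxylate in peroxisomes and can also use serine as amino donor. It read 16.17, 16.37 and 15.66 in control and 15.25, 15.19 and 14.94 in soy-fed livers. All soy-fed livers lay below all control livers, and control 3 was the nearest of the controls. The mean went from 16.07 ± 0.37 to 15.13 ± 0.17 (SD, n = 3), a change of -0.94 (SE 0.19, 95% interval -1.38 to -0.50) that did not pass (limma, adjusted p = 0.107). Agxt stood at rank 150 of the 15123 genes, and within the 2 slides that held both groups it differed by -1.02 and -0.72.

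Sds encodes serine dehydratase, which turns serine into pyruvate and ammonia and is known to follow protein intake and fasting in rodent liver. It read 14.93, 15.02 and 13.96 in control and 13.57, 13.43 and 13.52 in soy-fed livers. The soy-fed livers lay close together, and control 3 lay nearer to them than to the other controls. The change was -1.13 (SE 0.26, 95% interval -1.74 to -0.52, limma, adjusted p = 0.151), at rank 87. Within slides it was -1.40 on the slide with control 1, control 2 and soy 1 and -0.44 on the slide with control 3 and soy 3. Its relative Sdsl, which encodes a serine dehydratase-like protein, had a change of -0.32, and the change of Sds minus that of Sdsl, taken within arrays, was -0.81 (exact permutation test, two-sided, p = 0.1, adjusted over 4 pairs 0.133).

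Without control 3, both genes passed, Agxt at -1.14 (adjusted p = 0.0469) and Sds at -1.47 (adjusted p = 0.0175, limma). Without any of the other 5 arrays in turn they did not, at adjusted p of 0.197 to 0.280 for Agxt and 0.270 to 0.349 for Sds, nor with the slide as a block (adjusted p 0.162 and 0.284). They also passed where the scanner's processed signal was taken in place of the median intensities, with adjusted p of 0.0391 for Agxt and 0.0475 for Sds, but with that signal 20.1% of all named genes passed.

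Bcat2 and Bckdha stand for the catabolism of leucine, isoleucine and valine. Bcat2 encodes the mitochondrial branched-chain transaminase, known to be used more by muscle than by hepatocytes, and Bckdha encodes a subunit of the branched-chain keto acid dehydrogenase, the committed step. Bckdha read 15.26, 15.27 and 15.22 in control and 15.37, 15.03 and 15.12 in soy-fed livers, so the soy values spanned the controls. Its change was -0.078 (SE 0.11, 95% interval -0.34 to 0.19, adjusted p = 0.840, limma), and with the slide as a block it was 0.014. Bcat2 read 9.71, 9.61 and 9.45 in control and 9.44, 9.51 and 9.48 in soy-fed livers on its brighter probe, a change of -0.11 (95% interval -0.36 to 0.13, adjusted p = 0.725, limma). Its second probe, for another transcript, gave 0.099 (adjusted p = 0.853, limma), and the 2 probes thus differed in sign with neither change past the test. Bcat1, the cytosolic partner of Bcat2, had no array well above background and was not compared with it.

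**Figure D2:**
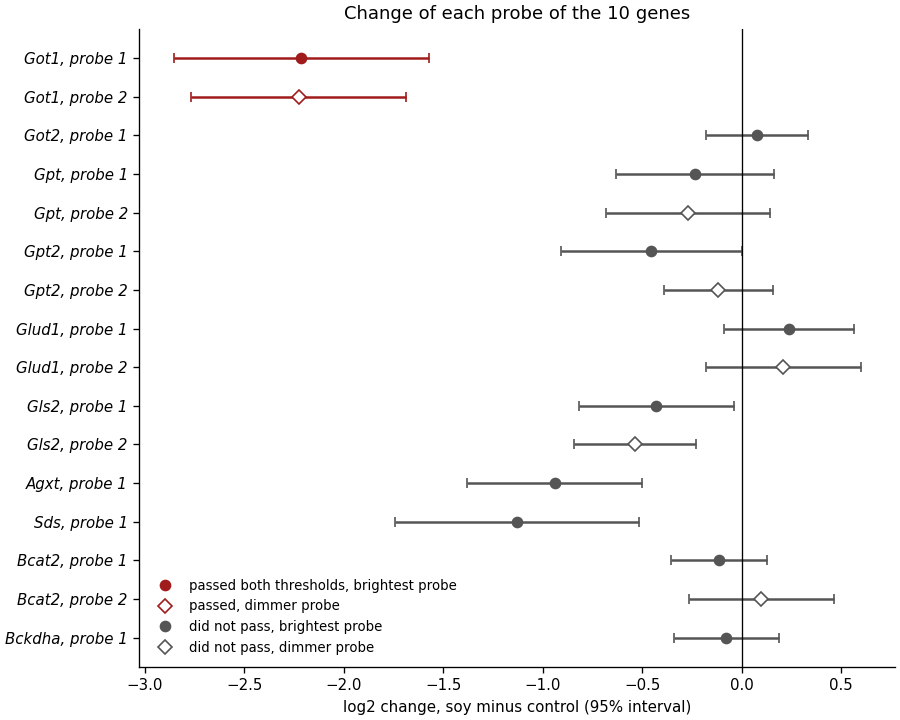
Log2 change (soy minus control) of all 16 probes of the 10 genes with 95% intervals; filled points are the brightest probe of a gene, open points the dimmer one, and red marks a change that passed. Both probes of Got1 lie near -2.2, Agxt and Sds near -1, and the intervals of Got2, Gpt, Glud1, Bcat2 and Bckdha include 0.

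On the brightest probes control 3 was the lowest control array for 9 of the 10 genes, all but Got2, and it was the lowest on every probe for 6, not for Gpt, Glud1 or Bcat2. Among 15069 genes well above background in the controls, 35.9% were lowest in control 3. The changes of Got1, Agxt and Sds were each larger without this array, which follows from its place as the lowest control in genes lower in soy. It was the only control on its slide, so the liver and the slide cannot be told apart.

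The other genes of the same pathways were taken as 5 lists: other aminotransferases, other enzymes of glutamate and glutamine, enzymes of serine, glycine and glyoxylate, the catabolism of branched-chain amino acids, and the carriers of the malate-aspartate shuttle and of glutamate. Of 68 genes 67 were on the array, Pycr1 being without a named probe. By limma, 0 of the 67 passed, against 0.458% of all named genes, and 7 had an unadjusted p under 0.05, against 14.2%. In value 34 were higher and 33 lower, with a median change of 0.0021. The groups did not overlap in 5 with soy higher, against 9.68% of all named genes, and in 4 with soy lower, against 10.8%. In 60 of the 67 the change was under 0.5 log2 units in size, as it was in 21151 of the 22911 named genes.

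Of 11 other aminotransferases, 5 were higher and 6 lower (median change -0.063). Among them Bcat1 and Got1l1 were well above background on no array, and the median is the value of Got1l1. Oat, the ornithine aminotransferase, which makes glutamate from ornithine and is known from the hepatocytes around the central vein, came nearest to the threshold. It read 15.49, 15.58 and 15.86 in control and 14.82, 14.14 and 14.14 in soy-fed livers. The groups did not overlap, and the change was -1.28 (SE 0.20, limma, adjusted p = 0.0593). Without soy 1 it was -1.503 and passed (adjusted p = 0.0379), but it did not without any of the other 5 arrays in turn (adjusted p 0.115 to 0.185) or with the slide as a block (-1.14, adjusted p = 0.242). Psat1, the transaminase of serine synthesis, had the opposite direction, reading 7.19, 7.06 and 6.88 in control and 7.98, 8.70 and 9.57 in soy-fed livers. All soy-fed livers were above the controls, at a change of 1.71 (SE 0.35, limma, adjusted p = 0.115). Tat, the tyrosine aminotransferase and a classical target of glucocorticoids, was looked at after its values were seen. It read 16.82, 16.51 and 15.70 in control and 15.72, 15.50 and 15.53 in soy-fed livers, with control 3 at the level of the soy-fed livers and a change of -0.76 (limma, adjusted p = 0.324). Without control 3 its change was -1.08 and passed (adjusted p = 0.0499), the only one of the settings run in which it did.

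Of 15 enzymes of glutamate and glutamine, 9 were higher and 6 lower (median 0.035), with Gad1 and Gad2 well above background on no array. The largest changes were those of Asns, the asparagine synthetase, at 1.27 (SE 0.56, adjusted p = 0.445, limma), and Amdhd1, of histidine breakdown, at -0.48 (adjusted p = 0.571, limma), both with overlapping groups. Of 15 enzymes of serine, glycine and glyoxylate, 9 were higher and 6 lower (median 0.064). Gldc, the glycine decarboxylase of the glycine cleavage system, was 0.84 higher (adjusted p = 0.260, limma) and Psph, the last enzyme of serine synthesis, 0.43 higher (adjusted p = 0.406, limma). The groups overlapped in both. Gldc was at 0.18 on the slide with control 1, control 2 and soy 1. On the slide with control 3 and soy 3 Gldc was at 1.53. Sds was thus lower in value while Psat1 and Psph, which make serine, were higher, and none of the 3 passed. Phgdh, of the same list as Psph, was at 0.19 (adjusted p = 0.744, limma), well above background on 2 control arrays and 1 soy array. A contrast between these genes was not tested.

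Of 19 genes of branched-chain amino acid catabolism, 10 were higher and 9 lower (median 0.0096). Bckdk, the kinase that inactivates the branched-chain dehydrogenase, was 0.64 higher (adjusted p = 0.262, limma), with all soy-fed livers above the controls, and Hsd17b10, of isoleucine breakdown, had a change of -0.28. Of 7 genes of the shuttle and the glutamate carriers, 1 was higher and 6 lower (median -0.052). Slc25a22, a mitochondrial glutamate carrier, read 13.10, 13.24 and 13.70 in control and 12.27, 12.52 and 12.66 in soy-fed livers. The groups did not overlap, and the change was -0.86 (SE 0.18, limma, adjusted p = 0.115). Slc25a18, another glutamate carrier of mitochondria, had a change of -0.10. The changes of these 7 shuttle and carrier genes thus ran from -0.86 to 0.0071, beside Got1 at -2.21.

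**Figure D3:**
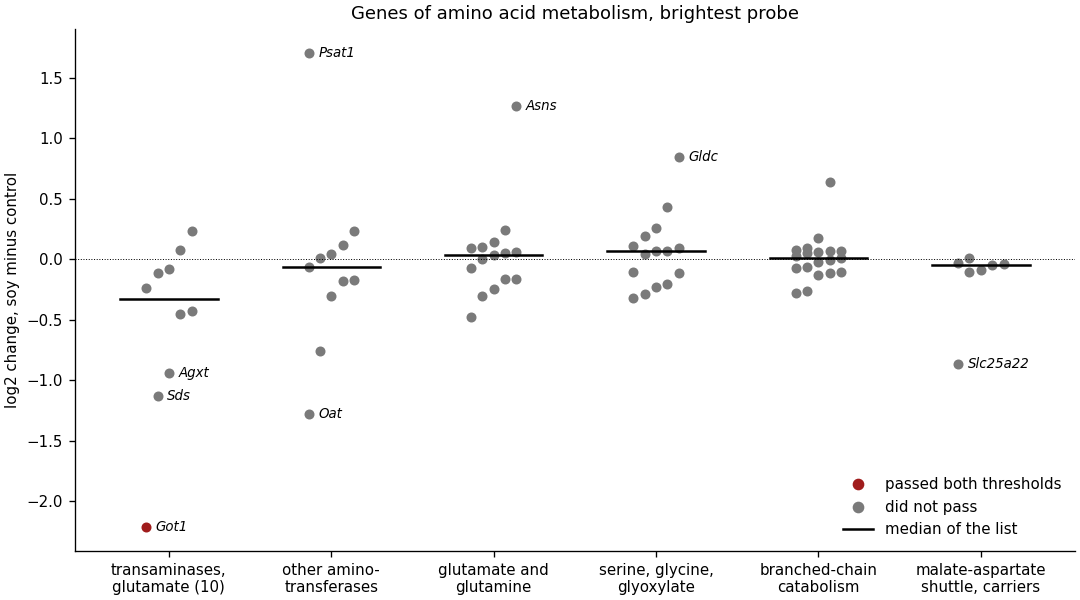
Log2 change (soy minus control) of each of the 10 genes and of the 67 other pathway genes, 1 point per gene by list, red where the change passed, with the list's median as a line. Got1 lies lowest, Oat and Psat1 stand apart on either side of their list, and the medians of the 5 other lists lie between -0.063 and 0.064.

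Genes whose brightest probe followed that of Got1 most closely over the 6 arrays, among 174 compared, were Retreg1 (Pearson r 0.991), Pptc7 (r 0.982), Acss2 (r 0.982) and Dntt (r 0.974). Acss2 makes acetyl-CoA from acetate. These 4 were lower in soy-fed livers, with changes from -1.71 to -1.13, and Dntt passed at -1.18 (limma, adjusted p = 0.0164). Only genes with a change of at least 1.11 log2 units in size were compared, so the direction and least size of these changes follow from that choice. Dntt did not pass without soy 1, soy 2 or soy 3 (adjusted p 0.0633 to 0.0833) or with the slide as a block (adjusted p = 0.131). The points share the arrays and the difference between the groups, so the correlations are a description.

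Sds, Tat and Pck1 are known to answer to fasting, glucagon and glucocorticoids, and hepatic RNA also changes with the hour of collection, so 3 further lists were read beside the enzymes. Of 10 genes of the fasting and glucocorticoid response, 6 were lower and 4 higher (median -0.61). Igfbp1 alone passed, against 0.458% of all named genes. By limma 6 of the 10 had an unadjusted p under 0.05, against 14.2% of all named genes. The groups did not overlap in 4 with soy lower, against 10.8% of all named genes, and in 2 with soy higher, against 9.68%. Igfbp1, a secreted binding protein that insulin represses, read 15.14, 14.70 and 14.29 in control and 11.74, 12.17 and 12.73 in soy-fed livers, a change of -2.50 (SE 0.29, limma, adjusted p = 0.0242). It did not pass with the slide as a block (adjusted p = 0.161) or without control 1, control 2, soy 1 or soy 2 (adjusted p 0.0576 to 0.108). Fgf21, a hormone of fasting and of low protein intake, went the other way in value, at 1.49 (adjusted p = 0.241, limma), and was well above background on 1 control array and 3 soy arrays. Pck1, the cytosolic PEP carboxykinase of glucose synthesis, read 17.81, 17.85 and 17.55 in control and 17.09, 16.75 and 16.85 in soy-fed livers. The groups did not overlap, at a change of -0.84 (limma, adjusted p = 0.0576). Pck1 passed under 5 of 12 alternatives of processing, with adjusted p from 0.00896 to 0.0418, but not with the slide as a block (adjusted p = 0.160) or without any 1 array (adjusted p 0.0641 to 0.187).

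All 6 clock genes that peak in the morning had higher values (median 0.70), and all 10 that peak in the evening had lower ones (median -0.70). By limma 0 of the 16 passed, against 0.458% of all named genes. Of the morning and the evening genes, 4 and 6 had an unadjusted p under 0.05, against 14.2% of all named genes. The tally includes Npas2, a morning gene with no array well above background, and Hlf, an evening gene at -0.0044, both named here after their values were seen. Arntl, the core activator of the clock, read 7.61, 7.42 and 8.66 in control and 8.88, 9.48 and 10.71 in soy-fed livers (change 1.79, adjusted p = 0.210, limma). Dbp, a transcription factor driven by the clock, read 15.86, 15.98 and 14.87 in control and 14.28, 13.87 and 10.77 in soy-fed livers (change -2.59, adjusted p = 0.300, limma), and Ciart had a change of -2.39. Control 3 was the control nearest to the soy-fed livers in both Arntl and Dbp, as it was in Got1, Agxt and Sds, whereas in Oat and Psat1 it was the farthest. The summed level of the evening genes, with Dbp the brightest probe, was 16.92, 16.93 and 16.10 in control and 16.06, 15.58 and 14.54 in soy-fed livers (log2 of summed intensities). The part of fasting state and of collection hour in the change of Got1 was not tested.

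**Figure D4:**
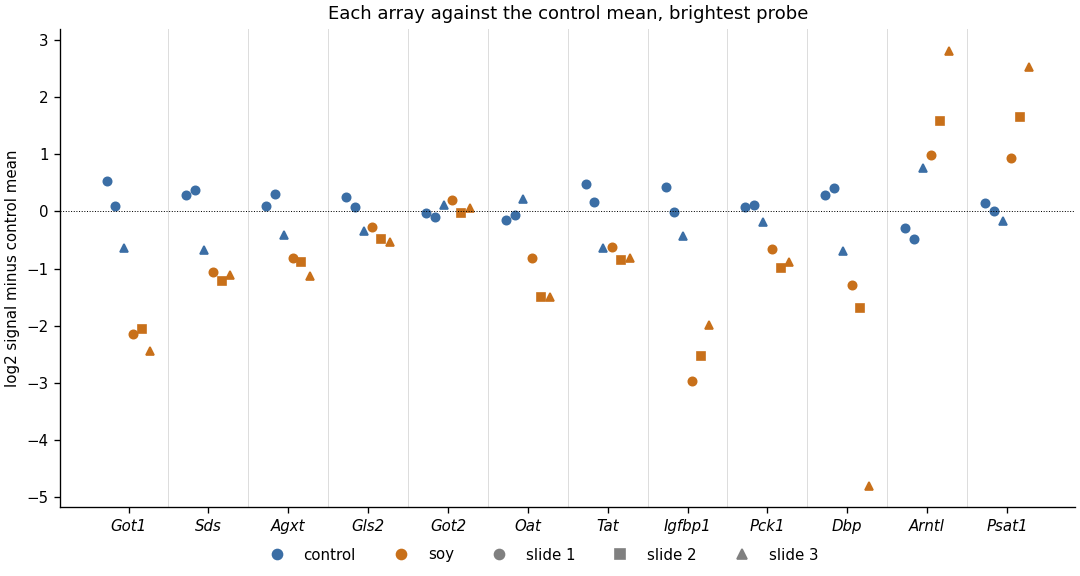
Log2 intensity of each array minus the mean of the 3 control arrays, coloured by group and shaped by slide, for Got1 and the genes set beside it, including Tat, which was chosen after its values were seen. In Got1, Agxt, Sds, Gls2, Tat, Igfbp1, Pck1, Dbp and Arntl control 3 is the control nearest to the soy arrays, in Oat and Psat1 it is the farthest, and Got2 stays near 0 on all arrays.

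The tissue label was checked with markers of the cells that a liver holds. The 6 hepatocyte markers, with Alb the brightest probe, were well above background on every array, and their summed level was 20.69, 20.80 and 20.79 in control and 20.72, 20.56 and 20.66 in soy-fed livers. Their median change was -0.10, with Cps1 at -0.47 and Fgb at -0.37 the largest, beside -2.21 in Got1. Pericentral markers had a median change of -0.19, with 7 of 8 lower in value, Oat at -1.28 the lowest, and Lgr5 alone higher, at 0.75, and periportal markers one of -0.079, with Pck1 at -0.84 and Ctsc at 0.52.

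Markers of other cells had median changes between -0.12 and 0.23. The median was 0.11 for Kupffer cells (Marco -0.73, Cd5l 0.45), with 5 of 6 higher in value. For endothelial cells it was 0.067 (Lyve1 -0.67, Kdr 0.30), with 3 of 6 higher. Lyve1 read 11.16, 9.23 and 9.32 in control and 9.49, 8.89 and 9.35 in soy-fed livers, so control 1 stood apart. For stellate cells the median was -0.12 (Col1a1 -0.997, Reln -0.23), with 5 of 6 lower. The groups of Col1a1 did not overlap (soy lower, adjusted p = 0.318, limma). Des was well above background on the control arrays alone, with overlapping groups. For cholangiocytes the median was -0.012, with Epcam on no array well above background and Sox9 at -0.16. Cftr and Krt7 were well above background on the control arrays but not on those of soy. The groups overlapped in Cftr (adjusted p = 0.600, limma) but not in Krt7, with soy lower (adjusted p = 0.641, limma). For red cells the median was 0.23 (Alas2 0.42, Hba-a1 0.26), with 4 of 6 genes on the array and the highest summed level in soy 2, at 18.47. Alas2 read 13.96, 11.43 and 13.94 in control and 13.71, 13.58 and 13.29 in soy-fed livers, so control 2 alone lay below the soy-fed livers. For skeletal muscle the median was 0.034, with Ckm, Mb and Myh4 on no array well above background, Acta1 again above it on the control arrays alone (groups overlapping, adjusted p = 0.601, limma) and Tnni2 at -0.18. Of these 9 marker lists, the 2 of hepatocyte zones included, 0 genes passed by limma, against 0.458% of all named genes. An unadjusted p under 0.05 was found in 5 of the 56 entries, against 14.2% of all named genes.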

How the data were processed

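RNA of 6 mouse livers was measured on Agilent 1-colour arrays, 3 control and 3 soy. The authors deposited scanner output of Feature Extraction 11.5.1.1, per the file headers, in which the median intensity of a spot and of its local background are unscaled, and a processed signal from which background had been subtracted. The authors also deposited a table of quantile-normalised log2 values, and the largest difference from the values used here was 0.0705. The thresholds, the start from median signals and the use of limma follow the methods of the study.

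Median intensities were corrected with normexp (offset 50), control spots were dropped, and the arrays were quantile normalised and log2 transformed. Outlier spots were left out and spots of a probe averaged. Each of 56605 probes was fitted for soy against control (limma 3.58.1, R 4.3.3, lmFit and eBayes) and p-values were adjusted over all probes. On simulated data, 70 of 100 probes changed by 1 log2 unit passed, and 95 of 100 changed by 2. The simulated noise was normal and independent, with the variance estimated for each probe, and held no slides, so these shares need not hold for the real arrays. The number of arrays limits the precision. A gene is given by its brightest probe.

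Probes were named through RefSeq accessions in a table of assembly GRCm38.p6, which matched 58.3% of probes. The array annotation uses a different build, and positions are therefore given for RefSeq promoters only.

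The genes and all 21 lists were chosen with earlier results of these data known. Named were every member, the genes of each list that passed, the 2 largest changes of each list among genes well above background, the 5 genes most like Got1 (well above background on every array, with a change of at least 1.11 log2 units in size), and the genes of the paired tests. Alternatives were other background corrections, signals, normalisations, filters, eBayes settings and ways of joining probes, the replicate and slide blocks, and leaving out each array. Tables were joined with Python 3.11.15 and pandas 2.3.3, permutation tests used scipy 1.17.1 and plots matplotlib 3.10.9. Some genes that this rule names, and 1 of the 4 pairs tested, are not reported here.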

Additional observations from a re-analysis of the deposited data

How the results depend on the processing

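Under the 13 alternatives of signal, normalisation, filter and design, the direction of all 10 genes was kept except for Bckdha, 0.014 with the slide as a block. Between 25 and 13138 probes passed under them, against 198. With an offset of 16, 77 probes, 41 genes and 0 of the 10 passed, and Got1 was at -2.22 (adjusted p = 0.0545). With the processed signal, 13138 probes, 4612 genes, 3 of the 10 (Got1, Agxt at -0.95 and Sds at -1.14) and 5 pathway genes (Oat, Psat1, Got1l1, Gad1, Slc25a22) passed. Of those probes 90.8% were higher, against 59.6% of the 198, and 11068 of the higher ones were well above background on no array. A shift to the 75th percentile gave 299 probes, 160 genes and 1 pathway gene, probes well above background only gave 497, 278 and 1, and trend and robust settings gave 164 genes and 1 pathway gene, Oat each time. The processed signal and the percentile shift moved the median of all probes by 0.14 each.

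With the replicate number as a block 78 probes and 45 genes passed, Got1 among them (adjusted p = 0.0427), while Igfbp1 (adjusted p = 0.0854) and Dntt (adjusted p = 0.0524) did not. Same-numbered arrays deviated together by r of 0.12, -0.057 and 0.11, so the numbers were not taken as pairs. With the slide as a block 25 probes, 13 genes and 0 of the 10 passed, with Got1 at -2.18. Within the slide of control 1, control 2 and soy 1 and that of control 3 and soy 3, in this order, Bcat2 was at -0.22 and 0.030, Got2 at 0.27 and -0.057, Bckdha at 0.10 and -0.10, Glud1 at 0.14 and 0.59, and Sds at -1.40 and -0.44. The causes were not tested.

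Leaving out each array gave 25 to 203 probes, 17 to 116 genes, 0 to 3 of the 10 and 0 to 1 pathway genes (Tat without control 3, Oat without soy 1). Got1 ranged from -2.53 to -1.95, its second probe from -2.46 to -2.05, Agxt from -1.14 to -0.79 and Sds from -1.47 to -0.94. The second probe of Bcat2 ranged from -0.068 to 0.22 and reversed without soy 1. That probe of Got1 passed under all 12 alternatives it had, and without control 3, but not without any other array (adjusted p 0.0501 to 0.0743).

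On the brightest probes, the differences within pairs of enzymes kept their sign under all 6 alternatives run for them and with each array left out. In the simulation with 3 arrays per group and no slides, 70 of 100 probes changed by 1 log2 unit passed, and smaller changes were not simulated.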

Other observations

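Probes of Got1l1 and Gad1, a relative of Got1 and a glutamate decarboxylase of neurons, were not well above background on any array, and with the processed signal both nevertheless passed as higher in soy, at 1.08 (limma, adjusted p = 0.00393) and 1.15 (limma, adjusted p = 0.00177). Psat1 was at 2.82 with that signal (limma, adjusted p = 0.0115) against 1.71 with the median intensities, whereas Got1 was at -2.20 against -2.21. These genes were chosen after their values were seen.

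Within slides, Oat was at -0.71 on the slide with control 1, control 2 and soy 1 and at -1.72 on the slide with control 3 and soy 3, and Psat1 at 0.85 and 2.69. Got1, Agxt and Sds were farther from 0 on the first of these slides, Oat and Psat1 on the other. The differences between slides were not tested.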
